A study of Mus musculus with 2 samples.

Results

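Heat shock proteins and J-domain co-chaperones are the core of the machinery that folds, refolds and sorts proteins. Their transcripts were followed through the cell types of the newborn mouse ovary. Members were taken by gene symbol alone, as the HSP70, HSP110, HSP90, chaperonin and small heat shock protein genes and the Dnaja, Dnajb and Dnajc genes of the deposited gene list, a rule that uses no measured value, although the family was taken up with earlier results of these data known. The rule found 70 of 31057 genes, of which 27 are heat shock proteins and 43 are J-domain co-chaperones. Both libraries held 0 UMIs of 2 members (Dnajb8 and Hspb3), and 6 members, these included, had fewer than 10 UMIs over both libraries together.

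The data are single-cell RNA sequencing of whole ovaries of female CD1 mice at postnatal day 2, with no treatment and no other genotype, on the 10x Genomics Chromium system. The system tags the 3′ end of each transcript, so that a captured molecule is counted once as a unique molecular identifier (UMI), whatever the length of the transcript. There were 2 libraries, each a pool of 6 ovaries of 3 pups of a single mother. They are the replicates (n = 2), the cells within them are not, and single pups cannot be told apart. Replicate 1 held 4094 cells and 54471790 UMIs, and replicate 2 held 4847 cells and 59074480 UMIs, with 21 cell barcodes present in both. The labels name version 2 of the reagent kit and the methods version 3.

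HSP70 proteins bind unfolded stretches of other proteins and are driven by J-domain co-chaperones, which bring the substrate and stimulate the ATPase. HSP110 proteins act as their nucleotide exchange factors, HSP90 takes over late folding steps, small heat shock proteins hold unfolded proteins without ATP, and Hspd1 with Hspe1 forms the folding chamber of mitochondria. Most members are made at all times, whereas Hspa1a and Hspa1b are HSP70 genes that heat shock factor switches on in stressed cells, and cell dissociation is known to induce them. Oocytes of the newborn ovary are laid down for the whole reproductive life, and chaperones are among the proteins that keep an oocyte's proteins folded.

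Cell types were set by marker genes. A cell counted as a germ cell by Ddx4, Dazl and Ooep, as a granulosa cell by Foxl2, Fst and Wnt6, as an interstitial cell by Col1a2 and Dcn, as a mesothelial cell by Upk3b or as an endothelial cell by Cdh5. A gate needed at least 2 UMIs of these markers and 1 per 10000 UMIs of the cell, and cells past more than 1 gate were left out. The gates gave 227 and 540 germ, 1427 and 455 granulosa, 1137 and 1874 interstitial, 4 and 16 mesothelial and 56 and 22 endothelial cells in replicates 1 and 2. The mesothelial sums therefore rest on 36579 and 94310 UMIs, and many low members are at 0 in them. Values are given beside them for cells typed by clustering without the members, which held 305 and 533 mesothelial-like cells, 209 and 323 of them past several gates. In the clusters, 89 of the 1427 and 161 of the 455 gated granulosa cells lay with the mesothelial-like cells, and 5 mesothelial check markers summed to 528 and 1144 UMIs per 1000000 (CPM) in gated granulosa cells, against 5768 and 4825 in gated mesothelial cells. Hemoglobin and other erythroid markers summed to 29.9 and 2349 CPM in gated interstitial cells, higher in replicate 2, and the part of this in the interstitial values was not tested. For germ cells, markers kept out of the gate went with the name: Zp3, Zp2, Sycp3, Figla, Nobox and Oosp1 summed to 5599.9 and 4849 CPM in germ cells and to at most 106 in any other gated type. Median depth was 77518 and 44383 UMIs per germ cell against 4609.5 to 13922 per cell of the other types, and levels are therefore given as CPM over all cells of a type in a library. They are compared between types, not between genes. The germ-like clusters were split unevenly between the libraries. Cluster 10 held 208 and 11 cells of replicates 1 and 2, cluster 23 held 11 and 429, and cluster 19 held 31 and 248. Their median depth was 79872, 61892 and 2777 UMIs per cell, in the same order. Germ values pool these cells, so the 2 libraries differ in the germ cells they hold, and the part of this was not tested.

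Taken as a sum, the 70 members gave 12175 and 12071 CPM in germ cells of replicates 1 and 2, and 8046 to 10826 in the 8 sums of the other types. Germ cells were highest in both libraries, without overlap. The sum is weighted to abundant members and does not describe the typical one. Hsp90aa1 gave 2020.0 and 1956 CPM in germ cells against 475 and 449.9 in granulosa cells. Dnajc15 gave 948 and 934 against 141 and 171, and Dnajb6 733 and 768 against 167 and 134. Hspa8 went the other way, with 1339 and 1339 against 2225 and 1930. Each type was then set against the mean of the other 4, weighted equally, with edgeR's quasi-likelihood test over all 14410 genes that passed the low-count filter, 62 members among them. A gene was called at a Benjamini-Hochberg adjusted p under 0.05 and over 2-fold. In germ cells 17 members were higher and 8 lower, and of all genes tested 31.4% were called higher and 16.8% lower there. In granulosa cells 8 members were higher and 0 lower, beside 17.4% and 2.85% of all genes. With DESeq2 the granulosa split was 4 higher and 3 lower, and the interstitial split was 10 higher and 5 lower. In interstitial cells 11 were higher and 3 lower in the edgeR fit, beside 17.4% and 4%. In mesothelial cells 2 were higher and 0 lower, beside 2.39% and 0.43%. In endothelial cells 3 were higher and 2 lower, beside 11.9% and 4.95%. Set against the 62 members tested, these counts were near or below the shares of all genes in each type and direction. Against the summed UMIs of the other types, the split was 14 higher and 17 lower in germ, 12 and 11 in granulosa, 9 and 13 in interstitial, 2 and 3 in mesothelial and 2 and 10 in endothelial cells. Without the mesothelial cells, a fit added after seeing the data, it was 17 and 13 in germ, 8 and 3 in granulosa, 10 and 5 in interstitial and 4 and 7 in endothelial cells. That fit tested 14716 genes, 63 members among them. Of all these genes 4668 were higher and 3502 lower in germ, 2844 and 1251 in granulosa, 2768 and 1293 in interstitial and 1735 and 1478 in endothelial cells. For the splits with DESeq2 and against the summed UMIs, the share of all genes was not counted. The centre of the contrasts was not at 0: the median log2 fold change of all genes was 0.43 in germ, 0.39 in granulosa, 0.34 in interstitial, -0.69 in mesothelial and 0.06 in endothelial cells, and the median of the 62 members was 0.20, 0.10, 0.23, -0.33 and -0.13.

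Germ cells held far less of the stress-inducible pair than the somatic types did. Hspa1a (ENSMUSG00000091971, chr17:34969190-34972156, minus strand) gave 1.12 and 0.431 CPM in germ cells of replicates 1 and 2, from 18 and 9 UMIs. It gave 81.1 and 60.7 in granulosa, 129.6 and 81.05 in interstitial, 27.3 and 31.8 in mesothelial and 159 and 8.30 in endothelial cells. Germ cells were below every somatic sum, and the low endothelial value of replicate 2 rests on 2 UMIs in 22 cells. The mesothelial values rest on 1 and 3 UMIs, and the mesothelial-like clusters gave 107 and 60.4 against 83.8 and 62.1 in granulosa-like cells. Hspa1b (ENSMUSG00000090877, chr17:34956436-34959238, minus strand), with its start 12918 bases away, gave 0.372 and 0.191 in germ cells, 5.57 and 5.53 in granulosa, 5.57 and 2.77 in interstitial, 0 and 10.6 in mesothelial and 15.2 and 4.15 in endothelial cells. Here the germ cells overlap with the mesothelial sums, of which 1 is at 0.

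In the test, the germ log2 fold change of Hspa1a was -6.51 ± 1.12 (SE), adjusted p = 8.3e-05, and that of Hspa1b was -4.52 ± 1.02 (SE), adjusted p = 0.00098. Both were called lower with cluster typing too, at -4.37 and -3.07. With the looser gate neither was called in germ cells (-3.75 and -2.73), and with cells thinned to 2000 UMIs Hspa1a was not (-4.39). The clusters put the germ level of Hspa1a at 2.98 and 5.27 CPM. For each somatic type the reference mean includes the low germ cells. Against it Hspa1a was called higher in interstitial cells (2.44 ± 0.39 (SE), adjusted p = 0.000111), also in the clusters. There Hspa1a gave 129 and 69.8 CPM in interstitial-like cells, which overlap with 107 and 60.4 in mesothelial-like and 83.8 and 62.1 in granulosa-like cells. In granulosa cells it was called higher by the gate (1.69 ± 0.41 (SE), adjusted p = 0.00523) but not in the clusters (0.58, adjusted p = 0.151), with the stricter gate (0.79) or with DESeq2 (1.68, adjusted p = 0.146). In endothelial cells the call (2.55 ± 0.48 (SE), adjusted p = 0.00079) rests on replicate 1, since replicate 2 alone gave -1.10 and replicate 1 alone 2.88, and it was not made with DESeq2 (adjusted p = 0.0734). The endothelial-like clusters, with 64 and 34 cells, gave 149.8 and 97.1 CPM and a call at 1.68. Hspa1b was called higher in endothelial cells by the gate (2.33 ± 0.62 (SE), adjusted p = 0.0132) and not in the clusters (adjusted p = 0.0587).

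With every cell thinned to 2000 UMIs, 0 of 219 germ cells of replicate 1 held a UMI of Hspa1a or Hspa1b, which allows a share of up to 1.37% by 3 counts and has an exact 95% upper bound of 1.67%, and 0.437% of 458 did in replicate 2 (exact 95% interval 0.053% to 1.57%). The share was 11.2% (9.64% to 13.0%) and 7.76% (5.47% to 10.6%) of granulosa cells, and 15.5% (13.4% to 17.7%) and 11.7% (10.3% to 13.3%) of interstitial cells. Of endothelial cells it was 17.9% (8.91% to 30.4%) and 4.55% (0.115% to 22.8%). Of mesothelial cells, 0 of 4 and 0 of 16 held a UMI of the pair, with exact 95% upper bounds of 60.2% and 20.6%. The thinning left out 8 and 82 germ cells, 3 and 4 granulosa cells and 8 and 81 interstitial cells that were shallower. At full depth the shares were 7.49% and 2.41% in germ cells, 26.1% and 25.9% in granulosa cells, and 29.8% and 20.2% in interstitial cells. In the germ-like clusters they were 11.2% and 10.9% at full depth, and 0% and 1.17% with thinned cells. These intervals and limits cover counting error only, and they bound the share of thinned cells with a UMI, not of cells that express the pair. In the somatic types the UMIs of the pair were concentrated: the tenth of cells with most of them held 75.3% and 70.5% of the UMIs in granulosa cells and 71.1% and 77.5% in interstitial cells.

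Immediate-early genes, which dissociation also switches on, were low in germ cells together with the pair. The sum of 12 of them (Fos, Fosb, Jun, Junb, Egr1, Ier2, Ier3, Atf3, Zfp36, Btg2, Dusp1 and Nr4a1) was 152 and 140.0 CPM in germ cells and 4099 to 11481 in the other sums. All 12 were called lower in germ cells, beside 16.8% of all genes. Free RNA can also put a few UMIs into any droplet. The germ level of the pair was 1.10% and 0.742% of the interstitial level, while 5 interstitial check markers in germ cells stood at 0.178% and 0.364% of their interstitial level, and 5 granulosa check markers at 0.619% and 0.723% of their granulosa level. In the germ-like clusters, where 19 and 148 cells were past several gates, the pair stood at 2.60% and 8.59% of the interstitial-like level. The part of free RNA and of the dissociation in these values was not tested.

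**Figure D1:**
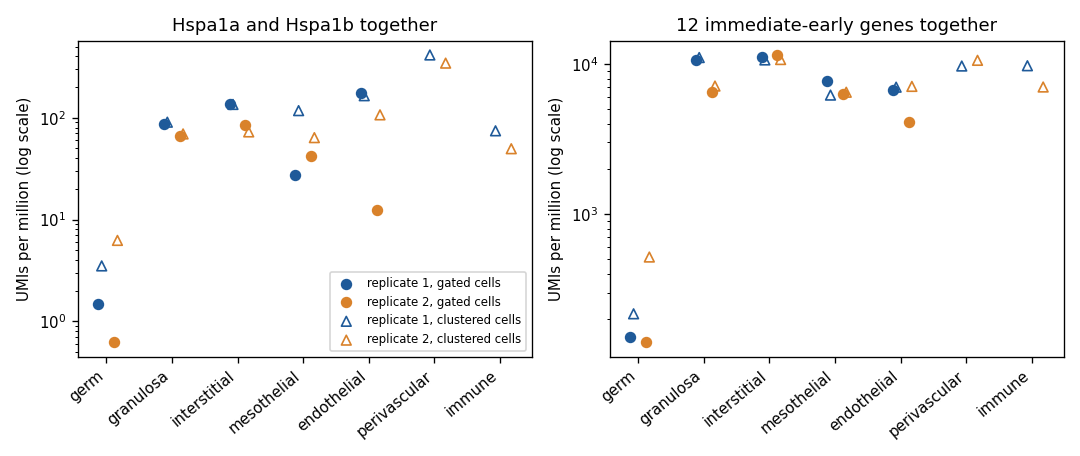
Summed level of Hspa1a and Hspa1b (left) and of 12 immediate-early genes (right) in CPM, on log axes, for each cell type and library; filled circles are gated cells, open triangles clustered cells, blue replicate 1 and orange replicate 2. Germ cells are lowest in both panels, and perivascular-like clusters are highest for the pair but not for the immediate-early genes. These clusters have no gate of their own, and 38 and 34 of their cells are among the gated interstitial cells.

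The promoters of the pair are close to identical. In the RefSeq windows (GRCm38.p6), the 250 bases before the 2 starts differ at 3 positions, and the 120 bases shown here at 1. Windows of 300 bases, 250 before to 50 after the start, were found for 57 of the 70 members, 74 windows in all. A heat shock element is built of GAA units in alternating direction. As 3 units (GAA, TTC and GAA, or TTC, GAA and TTC, with 2 free bases between neighbours) it was in 8.11% of the member windows, those of Dnajb6, Hspd1, Hspe1 and Hsph1, and in 0.603% of all 32851 windows. As 2 units (GAANNTTC or TTCNNGAA, which lie within every 3-unit match) it was in 23.0% of the member windows and 15.1% of all. The endoplasmic reticulum stress element (CCAAT and CCACG with 9 free bases between them, on either strand) was in the windows of Hspa5, Hsp90b1 and Dnajc3, 4.05% of the member windows and 0.119% of all. A match is a run of letters, not a site shown to be bound. The stretches below run 5′ to 3′ in the direction of transcription and end at the base before the RefSeq start. Capitals mark 2-unit matches in Hspa1a, Hspa1b and Hspb1, 3-unit matches in Dnajb6 and Hspe1, and the endoplasmic reticulum stress element in Hspa5, Hsp90b1 and Dnajc3. They are shown because the first 3 genes were lower in germ cells, Dnajb6 was higher there, Hspe1 shares its start region with Hspd1, and the last 3 carry the same element but did not share their germ level.
Hspa1a: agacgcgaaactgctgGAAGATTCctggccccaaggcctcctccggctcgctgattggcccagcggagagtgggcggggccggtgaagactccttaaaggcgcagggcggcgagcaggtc
Hspa1b: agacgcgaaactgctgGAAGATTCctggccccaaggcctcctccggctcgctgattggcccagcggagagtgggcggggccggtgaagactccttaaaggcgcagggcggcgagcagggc
Hspb1: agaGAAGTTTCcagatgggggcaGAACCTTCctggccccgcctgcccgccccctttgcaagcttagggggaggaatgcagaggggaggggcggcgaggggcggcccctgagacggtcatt
Dnajb6: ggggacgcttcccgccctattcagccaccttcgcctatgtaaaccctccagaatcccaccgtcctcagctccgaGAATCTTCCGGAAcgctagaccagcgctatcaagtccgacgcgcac
Hspe1: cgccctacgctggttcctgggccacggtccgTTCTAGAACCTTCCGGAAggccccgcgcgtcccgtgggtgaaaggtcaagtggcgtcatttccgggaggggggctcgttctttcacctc
Hspa5: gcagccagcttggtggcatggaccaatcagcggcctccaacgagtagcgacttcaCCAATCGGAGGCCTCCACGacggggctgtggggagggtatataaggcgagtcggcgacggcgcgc
Hsp90b1: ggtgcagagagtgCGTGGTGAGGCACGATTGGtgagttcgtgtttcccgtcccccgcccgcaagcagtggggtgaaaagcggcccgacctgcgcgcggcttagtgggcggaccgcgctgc
Dnajc3: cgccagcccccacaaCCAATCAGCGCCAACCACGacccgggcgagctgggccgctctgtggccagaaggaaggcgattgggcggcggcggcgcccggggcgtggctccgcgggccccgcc
The stretches are chr17:34972157-34972276 (minus strand) for Hspa1a, chr17:34959239-34959358 (minus strand) for Hspa1b, chr5:135887799-135887918 (plus strand) for Hspb1 and chr5:29735778-29735897 (plus strand) for Dnajb6. They are chr1:55088028-55088147 (plus strand) for Hspe1, chr2:34771970-34772089 (plus strand) for Hspa5, chr10:86705445-86705564 (minus strand) for Hsp90b1 and chr14:118937812-118937931 (plus strand) for Dnajc3. The 2-unit match begins 104 bases before the start in both Hspa1a and Hspa1b. Their transcripts share 1419 stretches of 90 bases, which is 49.3% of those of Hspa1a and 52.3% of those of Hspa1b, but none within the last 500 bases, where most reads of a 3′ assay fall. The annotation also has Gm20481 across Hspa1a on the other strand.

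The other members that heat shock is known to raise did not share one direction. Hsp90aa1, the inducible cytosolic HSP90, gave 2020.0 and 1956 CPM in germ cells and 301 to 880.1 in the other sums, so that germ cells stood above every other sum. Its germ log2 fold change was 2.03 ± 0.19 (SE), adjusted p = 6.42e-08. Hsph1, an HSP110 nucleotide exchange factor, was at 67.4 and 53.7 in germ cells and 0 to 22.1 elsewhere (2.13 ± 0.22 (SE), adjusted p = 2.38e-07). Dnajb1, the main J-domain partner of inducible HSP70, had lower values there, with 69.05 and 69.3 in germ cells, 246 and 154 in granulosa and 147 and 129 in interstitial cells. Its germ value of -0.94 ± 0.23 (SE), adjusted p = 0.00195 stayed under 2-fold, and the mesothelial sums of 54.7 and 117 overlap with the germ level. Without the mesothelial cells it was called lower in germ cells (-1.09, adjusted p = 0.000331).

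Hspb1, the small heat shock protein of many epithelia, was called in 4 of the 5 types. It gave 1.86 and 1.72 CPM in germ cells and 6.83 and 12.1 in interstitial cells. In granulosa cells it gave 106 and 130.4, in endothelial cells 62.00 and 16.6 and in mesothelial cells 219 and 349.9. The mesothelial sums were highest, and no germ sum reached any other. It was called lower in germ cells (-5.11 ± 0.34 (SE), adjusted p = 1.11e-09) and in interstitial cells (-2.06 ± 0.29 (SE), adjusted p = 2.58e-05), and higher in granulosa (2.42 ± 0.22 (SE), adjusted p = 2.06e-07) and mesothelial cells (3.81 ± 0.44 (SE), adjusted p = 5.6e-05). The mesothelial call was lost with the looser gate (2.70, adjusted p = 0.225). The clusters made the same 4 calls, with 318 and 259 in the mesothelial-like and 104 and 128 in the granulosa-like cells. In endothelial cells it was not called (0.94, adjusted p = 0.0671), but was with the library as a block, at 1.03 with an adjusted p of 0.0022. Without the mesothelial cells it was called higher there too, at 1.95 with an adjusted p of 0.00159. In its last 500 bases 7.06% of the 90-base stretches also occur in Hsp25-ps1, a pseudogene.

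**Figure D2:**
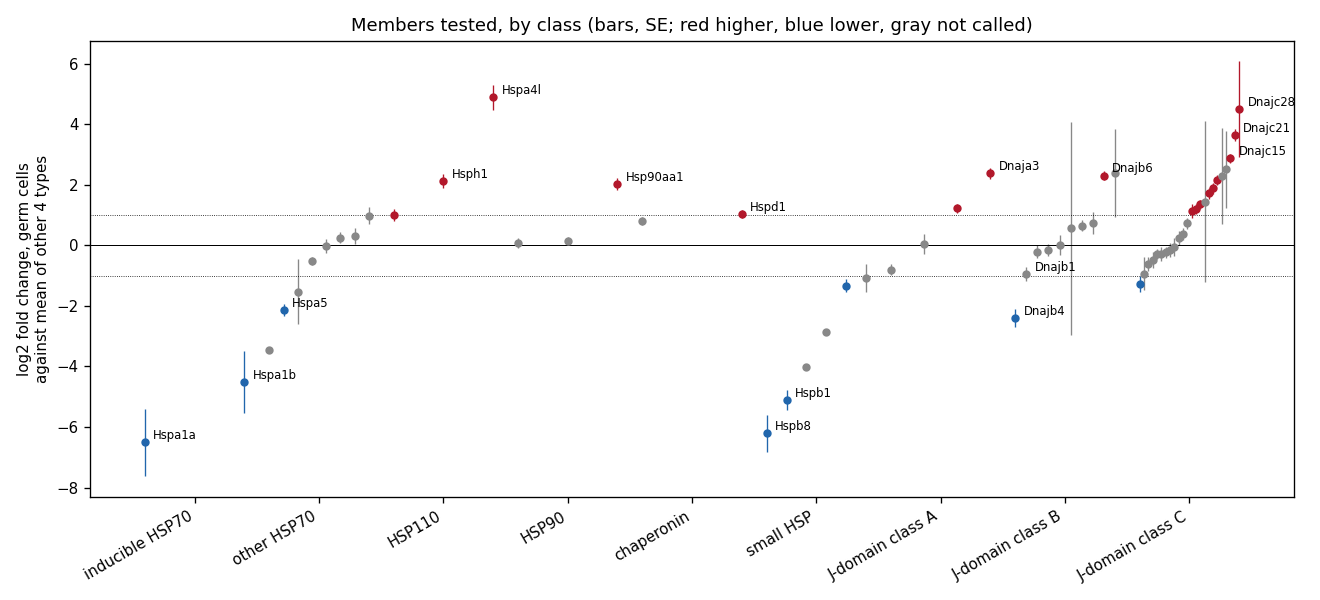
Log2 fold change of the 62 tested members in gated germ cells against the mean of the other 4 types (vertical axis), by class (horizontal axis). Bars are the SE, left out for 3 members where it was not below a fixed limit, and dotted lines mark 2-fold. The inducible HSP70 pair and the small heat shock proteins lie below 0, and all 3 HSP110 members lie above 0 and were called higher.

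The main constitutive cytosolic HSP70 and HSP90 were called in no contrast under the gates or the clusters. Hspa8, the constitutive HSP70, gave 1339 and 1339 CPM in germ cells and 1707 to 2290.3 elsewhere. Germ cells were below every other sum, and the germ log2 fold change of -0.52 ± 0.14 (SE), adjusted p = 0.00461 was under 2-fold. In its last 500 bases 79.8% of the 90-base stretches occur in other annotated genes, so reads that fit both may be missing from its counts. Hsp90ab1, the constitutive HSP90, gave 1962 and 1997 in germ cells and 1380.1 to 2386 elsewhere, with overlap, and a germ log2 fold change of 0.16.

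All 3 HSP110 members taken by the rule were called higher in germ cells, where 31.4% of all genes were. Hyou1, a chaperone outside the rule, was not called there (0.22 ± 0.34 (SE), adjusted p = 0.667). It was called higher in granulosa cells (1.59 ± 0.30 (SE), adjusted p = 0.000616). Hspa4l was at 40.9 and 34.6 CPM in germ cells, 11.7 and 11.6 in granulosa, 2.40 and 1.88 in interstitial and 5.44 and 8.30 in endothelial cells, and at 0 in both mesothelial sums. The germ value was 4.89 ± 0.42 (SE), adjusted p = 5.12e-08, and 2.88 ± 0.15 (SE), adjusted p = 6.18e-08 in the clusters, where the mesothelial-like sums were 4.05 and 3.87. Its granulosa call (2.77 ± 0.95 (SE), adjusted p = 0.0417) was lost with the library as a block (adjusted p = 0.0561) and in the clusters, where it was 0.67, and turned to -0.98 against the summed UMIs of the other types. Hspa4 gave 155 and 142 in germ, 141 and 118 in granulosa and 64.5 and 57.5 in interstitial cells. Its germ call (1.01 ± 0.19 (SE), adjusted p = 0.00018) lies at the 2-fold limit and was not made in the clusters (0.93).

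Among the remaining cytosolic members of the fixed list, 2 J-domain proteins were higher in germ cells. Dnaja2, a class A partner of HSP70, gave 321 and 311 CPM there and 112 to 246 elsewhere (1.22 ± 0.15 (SE), adjusted p = 1.77e-06). Dnajc7, which binds both HSP70 and HSP90, gave 246 and 222 against 78.8 to 108 (1.36 ± 0.15 (SE), adjusted p = 6.49e-07). Dnaja1, the other abundant class A protein, had its lowest sums in germ cells, 268 and 269 against 369 to 763, at -0.80 and without a call. Hspa2, the HSP70 of meiotic male germ cells, gave 21.4 and 26.2 in germ cells against 0 to 31.8, with overlap and without a call (0.98 ± 0.28 (SE), adjusted p = 0.00554). Without the mesothelial cells it was called higher there (1.28, adjusted p = 0.000168). The mesothelial-like clusters, however, gave 27.7 and 22.7 CPM of Hspa2, beside 21.6 and 23.6 in the germ-like ones.

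**Figure D3:**
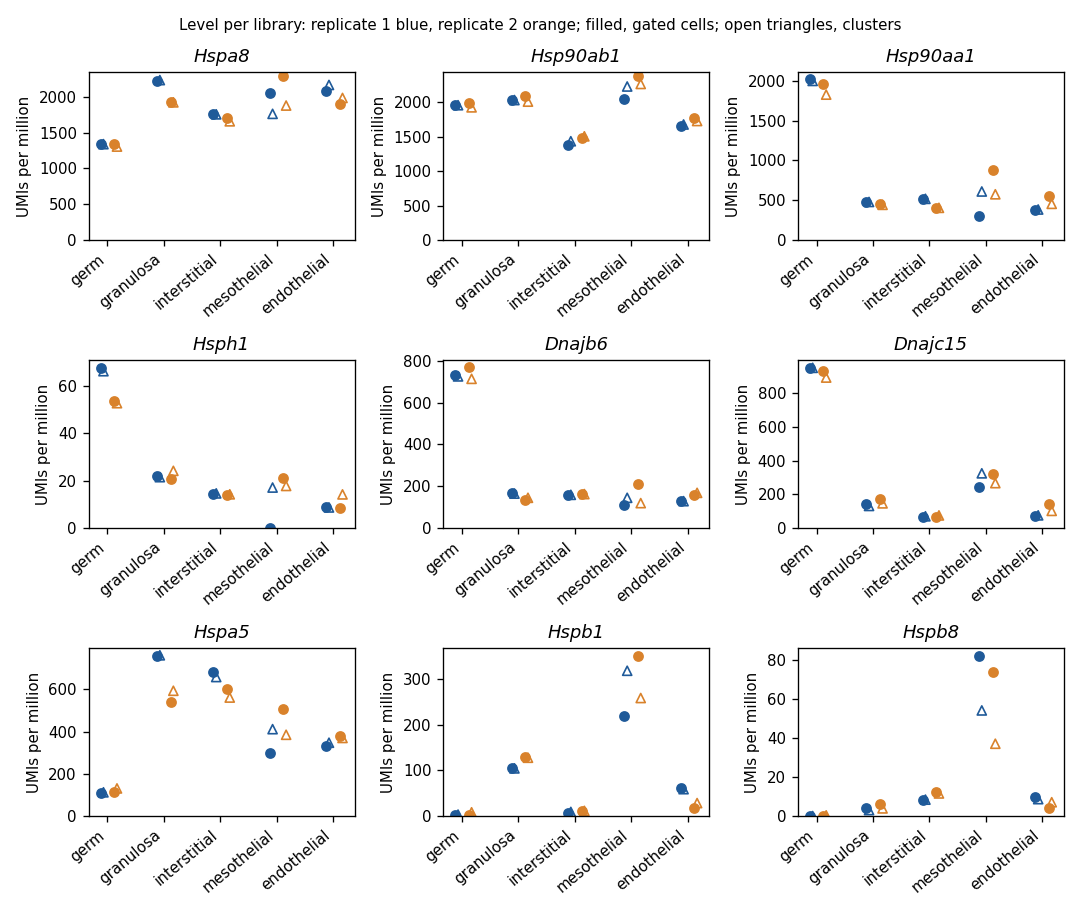
Level of 9 members (vertical axes, CPM, from 0) in each cell type and library; filled circles are gated cells, open triangles clustered cells, blue replicate 1 and orange replicate 2. Hsp90aa1, Hsph1, Dnajb6 and Dnajc15 are highest in germ cells, Hspa5 is lowest there, and Hspb1 and Hspb8 are highest in mesothelial cells.

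Of the 10 members assigned here to the endoplasmic reticulum, Hspa5 (BiP), its main HSP70, was the member called in germ cells. Members with no compartment set were left out, so the list may be incomplete. It gave 108 and 113 CPM in germ cells and 759 and 542 in granulosa, 680.2 and 603 in interstitial, 301 and 509 in mesothelial and 333 and 378 in endothelial cells. Germ cells lay below every other sum, and the germ log2 fold change was -2.14 ± 0.20 (SE), adjusted p = 6.41e-08. The granulosa and interstitial calls, at 1.05 and 1.08, lie at the 2-fold limit and were not made in the clusters (0.99 and 0.90).

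The partners of Hspa5 did not share its germ level. Hsp90b1 (GRP94), the HSP90 of the same compartment, gave 321 and 333 in germ cells, within the range of the others (137 to 464), at 0.07. Its mesothelial value of -1.01 was called lower with the library as a block (-1.02, adjusted p = 0.019), and was -0.28 in the clusters. Dnajb11, a J-domain partner of Hspa5, was at 0.65 and Dnajb9 at -0.15 in germ cells. Dnajc3, which also restrains a kinase of the stress response, was at -0.61 there. None of them was called in any contrast under the gates or the clusters. In granulosa cells Dnajc3 gave 122 and 94.2 CPM against 43.4 and 48.6 in germ cells, a contrast of 0.93 ± 0.19 (SE), adjusted p = 0.00137. Of the 10 members assigned to the compartment, 0 were higher and 1 was lower in germ cells, beside 31.4% and 16.8% of all genes. The median of the 10 was -0.04.

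The 8 members assigned here to mitochondria, a list that may be incomplete as well, summed to 2883 and 2749 CPM in germ cells. They summed to 897 to 1453 in the other sums. In germ cells 5 of 8 were called higher and 0 lower, beside 31.4% and 16.8% of all genes. Their median log2 fold change was 1.12 beside 0.43 for all genes. Dnaja3, the J-domain partner of the mitochondrial HSP70, gave 102 and 103 in germ cells and 0 to 25.04 elsewhere (2.38 ± 0.19 (SE), adjusted p = 1.42e-08). Dnajc15, a J-domain protein of the inner membrane known to dampen respiration, gave 948 and 934 in germ cells, 246 and 318 in mesothelial, 141 and 171 in granulosa, 73.96 and 141 in endothelial and 68.3 and 68.5 in interstitial cells. It was called higher in germ cells (2.88 ± 0.15 (SE), adjusted p = 6.81e-11) and lower in interstitial (-1.80 ± 0.19 (SE), adjusted p = 1.29e-06) and endothelial cells (-1.16 ± 0.22 (SE), adjusted p = 0.00101), with the same calls in the clusters. The endothelial call was lost with the looser gate (-0.63, adjusted p = 0.225).

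The mitochondrial HSP70 and chaperonin moved less. Hspa9, the HSP70 of the matrix, gave 185 and 168 CPM in germ cells and 82.01 to 191 elsewhere, with overlap and no call. Hspd1 (HSP60) gave 371 and 352 in germ cells against 117 to 249.8 (1.03 ± 0.14 (SE), adjusted p = 1e-05), a call at the 2-fold limit that was not made against the summed UMIs (0.80). Its co-chaperonin Hspe1, transcribed in the opposite direction from a start 111 bases away, gave 897 and 815 against 362 to 629, at 0.80 ± 0.14 (SE), adjusted p = 8.59e-05, which is under 2-fold. Both were highest in germ cells without overlap. In the last 500 bases of Hspe1, 36.01% of the 90-base stretches occur in another annotated gene.

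Of the 43 J-domain co-chaperones 38 were tested, and 12 were called higher and 2 lower in germ cells, of which 9 higher and 1 lower belong to class C, the class with the most varied functions. The share called higher is close to the 31.4% of all genes, and the share called lower is below their 16.8%. Dnajc21, which acts in the maturation of the large ribosomal subunit, gave 260.3 and 309 CPM in germ cells and 0 to 39.3 elsewhere (3.64 ± 0.19 (SE), adjusted p = 7.3e-11). Dnajc2, a ribosome-bound J-domain protein, gave 283 and 302 in germ cells and 46.4 to 120.3 elsewhere, and was called higher in germ (2.16 ± 0.15 (SE), adjusted p = 1.59e-09) and lower in interstitial cells (-1.07 ± 0.19 (SE), adjusted p = 0.00026), the latter call being lost with the looser gate (-0.88, adjusted p = 0.0885). Hspa14, its HSP70 partner at the ribosome, was called in no contrast. Dnajc17, a nuclear protein, gave 79.02 and 83.99 in germ and 11.96 and 20.7 in endothelial cells, and was called higher in the former (1.88 ± 0.18 (SE), adjusted p = 1.42e-07) and lower in the latter (-1.20 ± 0.36 (SE), adjusted p = 0.0246, lost with the looser gate and with thinned cells). Granulosa cells gave 18.98 and 21.0, which overlap with the endothelial values, and interstitial cells 23.2 and 27.5. In the last 500 bases of Dnajc17, 14.4% of the 90-base stretches occur in another annotated gene. Dnajc28 had 62 and 76 UMIs in germ cells and 0 in the mesothelial and endothelial sums. In CPM it gave 3.84 and 3.64 in germ cells, beside 2.69 and 2.77 in granulosa cells. Its germ call (4.50 ± 1.58 (SE), adjusted p = 0.0227) fell to 1.36 in the clusters and was lost with DESeq2 (adjusted p = 0.0611).

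Outside the fixed list and the members of largest change, Dnajb6 and Dnajb4 are named after their values were seen. Dnajb6, a J-domain protein that holds back aggregates, gave 733 and 768 CPM in germ cells and 109 to 212 elsewhere (2.30 ± 0.15 (SE), adjusted p = 8.09e-10). Dnajb4, a relative of Dnajb1, gave 12.9 and 12.6 in germ cells against 131 and 76.7 in granulosa and 99.1 and 81.9 in interstitial cells, and was called lower in germ (-2.40 ± 0.30 (SE), adjusted p = 2.59e-06) and higher in granulosa (1.39 ± 0.22 (SE), adjusted p = 0.000119) and interstitial cells (1.18 ± 0.22 (SE), adjusted p = 0.000539). The clusters made the same calls for both genes.

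Several small heat shock proteins were low in germ cells and high in particular somatic types. This class was set by gene symbol, Hspb11 included, and whether each member acts as a chaperone was not tested. Of 8 members 6 were tested, with a median of -3.44 in germ cells. There 0 were higher and 3 lower (Hspb1, Hspb8 and Hspb11), beside 31.4% and 16.8% of all genes. Hspb8, which works with Bag3 in clearing aggregates, had 0 and 6 UMIs in germ cells, which is 0 and 0.287 CPM. It gave 82.01 and 74.2 in mesothelial cells, from 3 and 7 UMIs, and 54.3 and 37.1 in the mesothelial-like clusters. The other somatic sums ranged from 3.98 to 12.2. It was called lower in germ cells (-6.21 ± 0.60 (SE), adjusted p = 1.22e-07) and higher in mesothelial (4.40 ± 0.81 (SE), adjusted p = 0.00403) and interstitial cells (1.17 ± 0.38 (SE), adjusted p = 0.0274), with the same calls in the clusters. With the looser gate the mesothelial and interstitial calls were lost (adjusted p = 0.173 and 0.0626), and with cells thinned to 2000 UMIs the germ call was (-2.44). Hspb7, known from heart and muscle, gave 6.58 and 6.13 in interstitial cells and at most 1.09 elsewhere (6.17 ± 0.79 (SE), adjusted p = 1.44e-05). Hspb2, likewise a muscle form, gave 6.07 and 5.34 in interstitial cells (3.97 ± 1.03 (SE), adjusted p = 0.00744). Its mesothelial sums were 0 and 21.2, from 0 and 2 UMIs, and overlap with the interstitial ones, and the mesothelial-like clusters gave 3.15 and 6.02, a call at 3.91.

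Hspb7 and Hspb2 were higher still in cells that the gates do not separate. Of the gated interstitial cells, 38 and 34 lay in the perivascular-like clusters, where Hspb7 gave 28.01 and 29.2 and Hspb2 35.01 and 73.1 CPM, against 5.75 and 5.22 and 6.11 and 3.75 in the interstitial-like clusters. With the clusters, which take the perivascular-like cells out, both were still called higher in interstitial cells, at 4.44 and 4.0. Of the distant HSP70 relatives, Hspa12b, known from endothelium, gave 40.2 and 41.5 in endothelial, 13.7 and 13.8 in interstitial and 0 to 1.66 in the remaining sums. It was called higher in endothelial (6.44 ± 0.58 (SE), adjusted p = 4.31e-07) and interstitial cells (4.45 ± 0.61 (SE), adjusted p = 3.31e-05). Both mesothelial sums were at 0, and in the clusters, where mesothelial-like cells gave 3.38 and 3.15, the calls were smaller, at 4.35 and 2.34. In the interstitial cells 5 endothelial check markers summed to 22.6 and 17.4 against 3693 and 3924 in endothelial cells, and their part in the interstitial value was not tested.

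**Figure D4:**
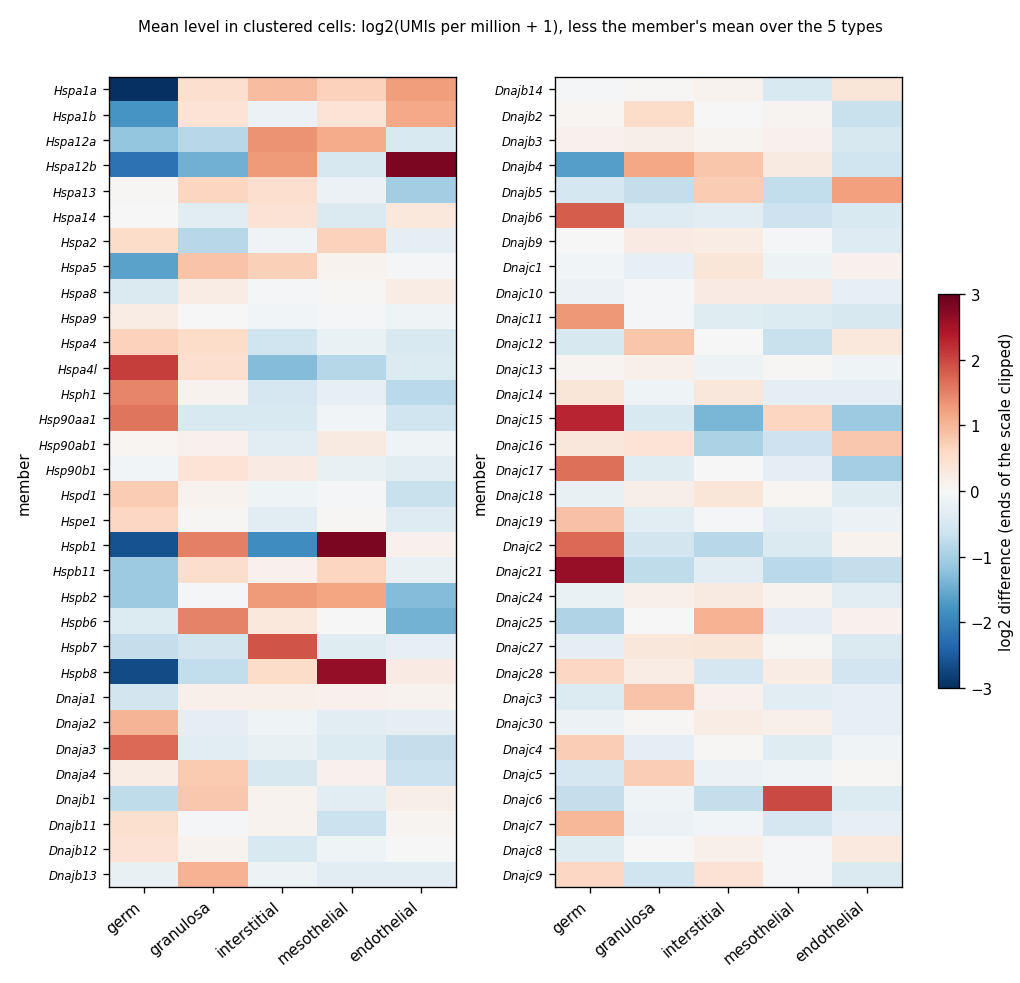
Mean level of the 64 members tested with cluster typing (rows, by class) in the 5 cell types (columns), as log2(CPM + 1) less the mean of that member over the types; red is above and blue below that mean, clipped at 3. Germ cells hold the deepest blue (Hspa1a, Hspb1, Hspb8) while Dnajc21, Dnajc15 and Hspa4l are red there, Hspa12b in endothelial cells and Hspb1, Hspb8 and Dnajc6 in mesothelial cells.

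Under the gates 33 of the 62 tested members were called in at least 1 contrast and 29 in none. The share of all genes called in at least 1 contrast, or in none, was not counted under either typing. Such counts are therefore no result about the members as a set. Under neither typing were 24 members called in any contrast, among them Hspa8, Hsp90ab1, Hsp90b1, Hspa9, Hspe1, Dnaja1, Dnajb1, Dnajb9, Dnajb11 and Dnajc3. Of the members that were neither on the fixed list nor among the largest changes, 30 were tested and 12 were called. In germ cells 4 of them were higher (log2 fold change 1.15 to 2.30, Dnajb6, Dnajc11, Dnajc19 and Dnajc4) and 3 lower (-1.27 to -2.40, Dnajb4, Dnajc25 and Hspb11). In granulosa cells 4 were higher (1.06 to 1.5), and in interstitial cells 5 (1.03 to 3.11). Of all genes, 31.4% were called higher and 16.8% lower in germ cells, and 17.4% higher in granulosa and in interstitial cells. The 3.11 is Dnajc18, at 0 in both mesothelial sums, with 18.7 and 29.8 CPM in interstitial and 18.00 and 23.05 in granulosa cells, which overlap. It was called neither without the mesothelial cells (0.61, adjusted p = 0.0598) nor in the clusters (0.47). The granulosa calls of Dnajc5 and Hspa13 and the interstitial call of Hspa13 were lost in both of these settings as well. The 8 members that were not tested with the gates had at most 114 UMIs over both libraries, and 1 of them, Dnajc6, was called in the mesothelial-like clusters, where it gave 4.73 and 8.75 CPM (4.21 ± 0.57 (SE), adjusted p = 0.000383).

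Clusters and gates made the same germ calls for 16 members higher and 8 lower. The clusters called 16 higher and 10 lower in germ cells (of all genes 31.1% and 24%), and 5 higher and 3 lower in mesothelial-like cells (13.2% and 4.56%). They called 6 higher and 4 lower in granulosa-like cells (14.3% and 7.13%), of which 3 higher were shared with the gates, and 9 higher and 5 lower in interstitial-like cells (14.8% and 8.17%), of which 8 and 3 were shared. In endothelial-like cells they called 3 higher and 4 lower (10.4% and 8.33%), of which 2 and 2 were shared.

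Genes that act with these chaperones but fall outside the rule were counted as a list, of which 36 were tested: nucleotide exchange factors, HSP90 co-chaperones, the cytosolic chaperonin, heat shock factors and J-domain proteins of other names. In germ cells 10 were higher and 5 lower, in granulosa cells 5 and 1, in interstitial cells 3 and 1, in mesothelial cells 1 and 0 and in endothelial cells 3 and 3. The germ counts are below the 31.4% and 16.8% of all genes called there. Of all genes, 17.4% were called higher and 2.85% lower in granulosa cells, and 17.4% and 4% in interstitial cells. In mesothelial cells these shares were 2.39% and 0.43%, and in endothelial cells 11.9% and 4.95%. Grpel2, a nucleotide exchange factor of the mitochondrial HSP70, gave 120.2 and 132 CPM in germ cells against 22.1 and 20.8 in granulosa cells (germ 2.77 ± 0.17 (SE), adjusted p = 6e-10). Hscb, a J-domain protein of iron-sulfur cluster assembly, gave 125 and 135 against 13.4 and 16.2 (germ 2.63 ± 0.20 (SE), adjusted p = 6.61e-09). Sil1 and Bag4 were also called higher in germ cells (2.50 and 1.62), and in the clusters too. Gak was called higher in germ and endothelial cells by the gate. It was at 0 in both gated mesothelial sums, and was called in no type by cluster. Serpinh1, the collagen chaperone, gave 4.53 and 7.32 in germ and 1046 and 1021 in interstitial cells (germ -6.61 ± 0.26 (SE), adjusted p = 3.71e-12). Cryab, a small heat shock protein by another name, gave 0.0620 and 0.479 in germ, 53.9 and 38.00 in interstitial and 137 and 138 in mesothelial cells (germ -5.55 ± 1.38 (SE), adjusted p = 0.00217). In the mesothelial-like clusters Cryab gave 49.3 and 68.99, closer to the 50.1 and 34.2 of the interstitial-like ones, and both were called higher (4.04 and 3.44). Bag3, which partners Hspb8 and is itself induced by stress, gave 2.54 and 2.49 in germ, 41.8 and 32.5 in granulosa, 27.1 and 28.3 in interstitial and 46.8 and 24.9 in endothelial cells. Its gated mesothelial sums held 0 UMIs, whereas the mesothelial-like clusters gave 24.5 and 21.9, near the interstitial level. The gated folds, called higher in these 3 somatic types, depend on those zeros and are not given. In the clusters Bag3 was called higher in granulosa-like (1.13 ± 0.17 (SE), adjusted p = 0.000518) and endothelial-like cells (1.19 ± 0.25 (SE), adjusted p = 0.00594), and not in interstitial-like cells (0.54 ± 0.17 (SE), adjusted p = 0.0257). By the gate, Bag2 and Fkbp5 were lower in germ (-2.17 and -1.35) and higher in granulosa cells (2.20 and 1.76), where Hyou1 was higher too (1.59). Hyou1, Grpel2 and Bag4 were lower in endothelial cells (-1.97, -1.64 and -1.51), and Sil1 in interstitial cells (-1.22). Of these calls, the clusters did not make that of Bag4.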

How the data were processed

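The authors deposited UMI counts per gene and cell for barcodes called as cells, not normalized. The submitters' processing notes name Cell Ranger 3.0.2 and GRCm38. Members and lists were chosen with earlier results of these data known. A barcode needed 500 genes, and no more than 10% of its UMIs from mitochondria, which left 3738 and 4464 cells. UMIs were summed per gated type and library (10 sums) and tested with the quasi-likelihood functions of edgeR 4.0.16 (R 4.3.3) after its expression filter and TMM scaling. Each SE was derived from this test, as the absolute log2 fold change divided by the square root of the F value. The named members were a fixed list of 23 and, per contrast, the 3 largest called changes each way with the same sign in each library, 32 in all. A chaperone pathway list was named by the same rule. Types of a library come from the same pups, so the library is a pairing: deviations correlated by 0.0125 to 0.230 over 14410 genes. On simulated sums with 200 genes changed 4-fold, the test recovered 89.5% in germ, 86.5% in granulosa, 89.5% in interstitial, 33.5% in mesothelial and 74% in endothelial cells. Of the calls, 3.24%, 2.26%, 1.1%, 8.22% and 1.33% were false, in the same order. In the simulation all types shared a mean profile and a common spread, without pairing, and the changed genes were among the more abundant. The data differ in this, so these shares hold for the simulated setting alone. Clusters (scanpy 1.11.5, Leiden resolution 1, 24 clusters, 1992 variable genes with no members) were named from the same markers. Cells past more than 1 gate, 21.8% and 30.6% of the cells kept, were left out as possible doublets. Scrublet, with the threshold of replicate 1 used for both libraries, marked 96 and 93 cells, which is 2.57% and 2.08%. How many of the cells left out are doublets was not tested. Positions are from GENCODE vM21. Protein sequences were not used here. Alternatives covered the gates, clusters, filters, thinning, scaling, reference, DESeq2 1.42.0, the replicate block and each library alone.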

Additional observations from a re-analysis of the deposited data

Results flagged for a closer look

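Cells that the 5 gates do not separate, or that passed more than 1 gate, held the inducible pair too. The perivascular-like clusters, 54 cells in each library, gave 413 and 343 CPM of Hspa1a and Hspa1b, above the 63.7 to 164 of the 4 other somatic types by cluster. Their immediate-early sum of 9690.2 and 10574 was within the range of the other gated and clustered somatic types. Cells past more than 1 gate, 815 and 1365, gave 119 and 52.1. In the perivascular-like clusters 38 and 34 cells were gated interstitial and 1 of replicate 2 was gated germ. These cells are therefore part of the gated sums, while the perivascular-like clusters as such entered no comparison. Cells past more than 1 gate entered no gated sum of the main fit. Many of them, such as 353 and 764 in the interstitial-like clusters, are part of the cluster comparisons. No difference of either group from other cells was tested. A group of 2 libraries is too small to look for a sample far from the others.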

How the results depend on the processing

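Of 74 counts of called members under other settings, 56 lay within 1.5 times the value reported. The others follow. Granulosa calls (8 as reported) were 13 with cells thinned to 2000 UMIs, 23 against the summed UMIs of the other types and 19 with no fold threshold. Interstitial calls (14) were 22 against the summed UMIs. Mesothelial calls (2) were 8 with Leiden clusters and 5 against the summed UMIs. Endothelial calls (5) were 9 with the stricter gate, 3 with the looser gate, 12 against the summed UMIs, 8 with no fold threshold and 11 without the mesothelial cells, a fit added after seeing the data. Each library alone allows no test: past 2-fold were 34 to 36 members in germ, 14 to 24 in granulosa, 18 to 24 in interstitial, 23 to 38 in mesothelial and 18 to 19 in endothelial cells. With the replicate block the counts were 25, 8, 14, 3 and 6 in germ, granulosa, interstitial, mesothelial and endothelial cells, and the calls changed by this pairing beyond those given beside results were Dnajc18, called higher in granulosa cells at 2.75. Of 38 named called values, 470 of 525 alternatives kept direction and call, 53 lost the call and 2 reversed. The single libraries, which allow no test, are counted in this by direction and the 2-fold limit alone. Of the 53, 5 fell under 2-fold without replicate 1 and 1 without replicate 2. The 2 reversed were Hspa4l in granulosa cells against the summed UMIs (-0.98) and Hspa1a in endothelial cells without replicate 1 (-1.10, and 2.88 without replicate 2). Germ calls of Hspa1a and Hspa1b were not made with the looser gate, nor those of Hspa1a and Hspb8 with thinned cells. The mesothelial gate, with 4 and 16 cells, limits every value near 0 there. The cause of these changes was not tested.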
